A study of Homo sapiens with 9 samples.

Results

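The kinesins are motor proteins that move along microtubules. The family was taken as every protein-coding gene of the count table whose symbol is KIF or KIFC followed by a family number and an optional letter, which gave 42 of 58735 genes. Of these, 33 passed the filter on low counts, among 15232 genes tested. Their transcripts were measured by RNA sequencing in HEYA8 cells, a human ovarian cancer line given in the labels as high-grade serous, genotype WT. Cells received compound 32 (3 libraries), sunitinib (3 libraries) or an equal volume of DMSO, the solvent control (3 libraries), for 24 h. Sunitinib inhibits several receptor tyrosine kinases. Neither the doses nor the structure of compound 32 could be taken from the labels. No group received cisplatin, although the series title concerns synergy with it, and all libraries come from a single cell line and carry the same batch day in the labels. Replicates of sunitinib and DMSO were described by the submitters as biological. No such statement covers compound 32, whose replicate spread may be technical.

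Most kinesins use ATP to walk towards the growing end of a microtubule, and a few walk the other way or take microtubules apart. In dividing cells, mitotic kinesins build the spindle, align chromosomes and complete cytokinesis, and their genes are transcribed mainly late in the cell cycle, under promoters that carry a cell cycle homology region and CCAAT boxes. Transport kinesins carry vesicles, endosomes, mitochondria and ciliary cargo through the cell at all stages. By these textbook roles the 42 genes were divided into 15 mitotic, 15 transport, and 12 ciliary or other kinesins, of which 13, 13 and 7 passed the filter. In bulk RNA, fewer cells in mitosis and less transcript per cell cannot be told apart, and cell cycle phase was not measured.

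The 9 kinesins that did not pass the filter were KIF2B and KIF4B of the mitotic class, KIF1A and KIF5A of the transport class, and KIF6, KIF12, KIF19, KIF25 and KIF26A. None exceeded 5 counts in a library, and 3 of them, KIF2B, KIF19 and KIF25, had no count in any. KIF4B is a near-identical retrocopy of KIF4A, so reads of this pair may not be assigned to the right gene. Ovarian epithelial markers were present in part. In DMSO cells PAX8 averaged 132 ± 3.78 CPM (counts after scaling for library size; SD, n = 3), KRT8 695 ± 19.9 CPM and WT1 12.4 ± 1.24 CPM, whereas EPCAM was at 1.32 ± 0.43 CPM and MUC16 near 0 at 0.040 ± 0.069 CPM. Of 10 markers of blood, endothelium, fibroblasts, muscle, liver and red cells, summed levels were 26.5 to 29.3 CPM in compound 32 libraries, 45.5 to 49.0 CPM in sunitinib libraries and 29.3 to 30.9 CPM in DMSO libraries, mostly CD79A, CDH5 and ACTA2. HBB was at 0 in every library. ALB had 39 counts (2.54 CPM) in sunitinib replicate 3 and at most 0.16 CPM in any other library. CD3E had 5 counts in that library and 0 in all others, and MUC16 5 counts there. The part of these markers in the results was not tested.

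Library totals ran from 15498101 to 18006171 counts. Sunitinib replicate 3 stood apart from the rest. Ribosomal protein genes took 7.01% of its counts, against 3.75 to 4.57% in the other 8 libraries, and mitochondrial genes 5.36%, against 3.42 to 3.92%. Against the mean of sunitinib replicates 1 and 2 on the log2 CPM scale, its 13 mitotic kinesins had a median difference of 0.10, its 13 transport kinesins -0.36 and its 7 ciliary or other kinesins -0.46. The difference was -0.21 over all genes of 8000 bases or more and 0.04 over shorter genes, and the median length was 7721 bases for the transport kinesins and 4668 bases for the mitotic kinesins. Among single kinesins the lowest was KIFC2 of 4447 bases at -0.91, followed by KIF21B of 12150 bases at -0.65 and KIF13B of 11112 bases at -0.59. KIF23 of 6576 bases stood at 0.23, and KIF26B of 14403 bases was the highest at 0.38. The part of length in these differences was not tested. Values without this library are given below where they change a call, and for some members where they change a direction or the size of a called value.

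Promoter sequences, which are independent of the expression values, differed between the classes. RefSeq promoters (GRCh38.p14), from 250 bases before to 50 bases after each gene start, were matched by symbol for 34 of the 42 kinesins. The unmatched members were KIF5A, KIF13B, KIF19, KIF21B, KIF26B, KIF27, KIFC2 and KIFC3. Stretches of 150 bases upstream of the start are shown for the kinesins that lead the results below, with the cell cycle homology region (TTTGAA or TTTAAA) and the CCAAT box in capitals, on either strand. KIF20A and KIF18A had the largest falls under compound 32, KIF11 was among the largest under sunitinib, and KIF23 fell under both compounds. KIF5B and KIF1C, the most abundant transport kinesins, are shown for contrast.
KIF20A: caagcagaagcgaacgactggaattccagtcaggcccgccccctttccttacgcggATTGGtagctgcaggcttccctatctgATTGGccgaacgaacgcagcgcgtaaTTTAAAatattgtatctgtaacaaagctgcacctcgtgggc
KIF18A: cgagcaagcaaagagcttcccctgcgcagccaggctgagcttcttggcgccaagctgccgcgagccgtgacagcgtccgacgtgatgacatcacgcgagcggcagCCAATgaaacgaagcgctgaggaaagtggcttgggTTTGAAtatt
KIF11: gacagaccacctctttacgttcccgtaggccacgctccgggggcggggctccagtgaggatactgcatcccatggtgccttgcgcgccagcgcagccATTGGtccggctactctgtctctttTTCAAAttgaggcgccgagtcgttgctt
KIF23: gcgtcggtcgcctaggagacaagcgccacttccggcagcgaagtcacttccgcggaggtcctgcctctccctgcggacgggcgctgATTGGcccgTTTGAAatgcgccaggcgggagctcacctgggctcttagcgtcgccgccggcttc
KIF5B: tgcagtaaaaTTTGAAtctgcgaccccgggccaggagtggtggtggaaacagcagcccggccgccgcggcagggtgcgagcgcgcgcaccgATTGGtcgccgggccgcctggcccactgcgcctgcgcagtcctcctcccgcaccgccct
KIF1C: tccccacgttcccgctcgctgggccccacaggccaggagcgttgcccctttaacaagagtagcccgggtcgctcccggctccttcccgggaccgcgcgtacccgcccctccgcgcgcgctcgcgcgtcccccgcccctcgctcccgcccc
Each is read 5′ to 3′ on the strand of its gene: KIF20A at chr5:138178962-138179111 (plus strand), KIF18A at chr11:28108157-28108306 (minus), KIF11 at chr10:92592980-92593129 (plus), KIF23 at chr15:69414199-69414348 (plus), KIF5B at chr10:32056426-32056575 (minus) and KIF1C at chr17:4997800-4997949 (plus).

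The cell cycle homology region matched in 12 of 15 mitotic kinesins, in 2 of 11 transport kinesins and in 0 of 8 ciliary or other kinesins with a promoter. It matched in 27.9% of all 27305 genes with a promoter in the table. The mitotic promoters without a match were those of KIF2A, KIF2B and KIF22, and the transport promoters with a match were those of KIF5B and KIF16B. The match began 41, 28, 34, 35 and 10 bases before the start in KIF20A, KIF11, KIF4A, KIF15 and KIF18A, and 140 bases before it in KIF5B. Distant matches occurred in mitotic kinesins too, 198 bases before the start in KIF14 and 211 bases before it in KIF23, each of which also held a match nearer the start. CCAAT boxes matched in 11 of 15 mitotic, 4 of 11 transport and 3 of 8 ciliary or other kinesins, and in 39.7% of all genes. Both motifs occurred together in 10 of 15 mitotic kinesins, in 1 of 11 transport kinesins, KIF5B, and in 11.2% of all genes. An E2F motif (TTCGCGC or TTGGCGC) matched in 3 mitotic kinesins, KIF15, KIF18A and KIF18B, in the transport kinesin KIF16B and in KIF6, against 6.1% of all genes. The hypoxia response core ACGTG matched in 6 of 15 mitotic, 4 of 11 transport and 1 of 8 ciliary or other kinesins, against 24.9% of all genes. Among genes that passed the count filter the shares were 32.5% for ACGTG and 10.5% for E2F. They were 21.3% for the homology region, 43.0% for CCAAT and 8.97% for both. Of kinesins that passed the filter 9 of 27 held ACGTG, close to that share. Both strands were searched, and no match of a motif overlapped a match of another. These short letter matches are a description and do not show that a factor binds there.

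**Figure D1:**
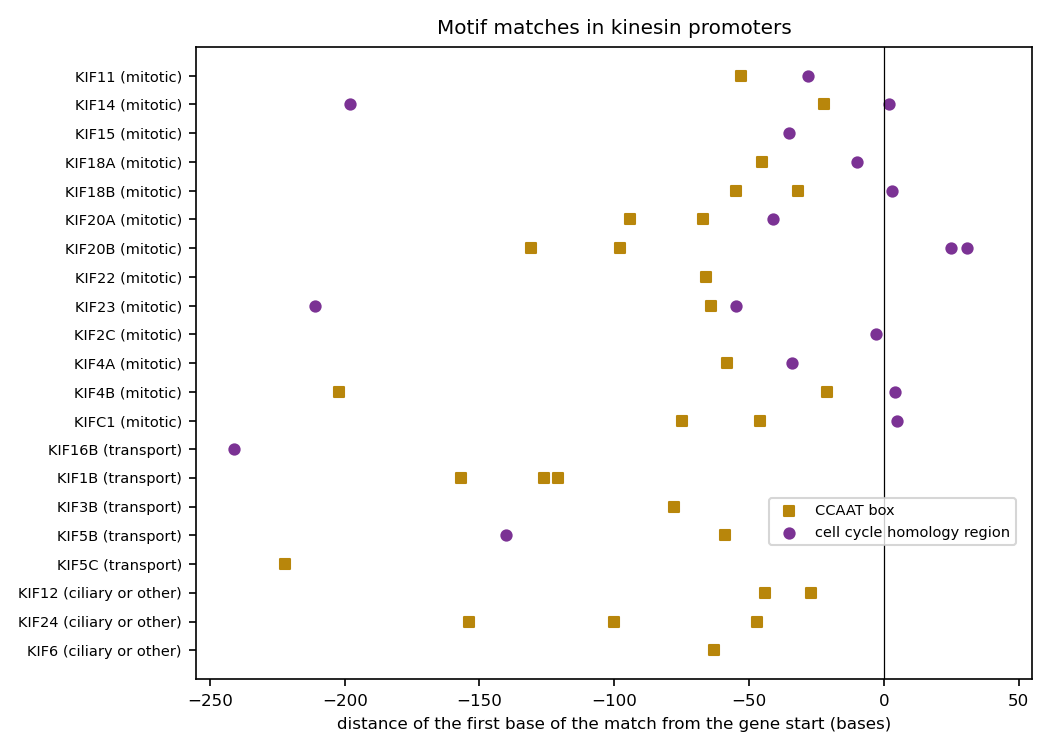
Positions of the cell cycle homology region (circles) and CCAAT box (squares) in the promoters of the kinesins that hold either, by class; the horizontal axis is the distance in bases from the gene start to the first base of the match. Each mitotic kinesin with the homology region has a match within 55 bases of the start, and KIF14 and KIF23 have a further one 198 and 211 bases upstream; the only matches of KIF5B and KIF16B lie 140 and 241 bases upstream.

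Per length, the transport motor KIF5B, the ubiquitous heavy chain of conventional kinesin, was the most abundant kinesin in each group. It reached 67.3 ± 3.53 CPM per kilobase in compound 32 cells, 64.9 ± 3.28 in sunitinib cells and 79.2 ± 3.27 in DMSO cells (SD, n = 3). In DMSO cells KIF2C (47.7 ± 1.21 CPM per kilobase), KIF1C (35.7 ± 0.86), KIF20A (30.2 ± 0.98), KIFC1 (28.8 ± 0.52) and KIF11 (27.8 ± 0.38) followed; among these neighbours the ranges within 1 SD of the mean overlapped for KIF20A and KIFC1. In sunitinib cells KIF1C (30.3 ± 4.22) and KIF2C (28.0 ± 1.61) were within their spread of each other. Compound 32 cells had KIF1C at 42.4 ± 0.63 and KIFC1 at 24.8 ± 0.36, while KIF20A stood at 7.57 ± 0.34. The length is that of all annotated exons, so these levels depend on which isoforms the cells use. Summed over each class, mitotic kinesins gave 839.6 ± 16.1 CPM in compound 32 cells, 701 ± 17.5 CPM in sunitinib cells and 1282 ± 16.3 CPM in DMSO cells. Transport kinesins gave 1355 ± 29.02 CPM in compound 32 cells, 1169 ± 126 CPM in sunitinib cells and 1350.0 ± 40.2 CPM in DMSO cells.

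Under sunitinib the mitotic kinesins fell and most transport kinesins did not pass the test. All 13 mitotic kinesins that could be tested were called lower, at a Benjamini-Hochberg adjusted p under 0.05 in edgeR's quasi-likelihood test. Of all 15232 genes 19.9% were called lower, 20.3% higher and 40.2% in either direction, with a median log2 fold change of 0.02. The mitotic median was -0.80, with a range of -1.29 to -0.34, and 5 of the 13 fell by 2-fold or more, against 2.23% of all genes. Of 13 transport kinesins 3 were lower, 1 higher and 9 not called, with a median of -0.07 that turned to 0.01 with upper quartile scaling. Of 7 ciliary or other kinesins 2 were lower and 5 not called, with a median of 0.30. Without sunitinib replicate 3 all 13 mitotic kinesins were again called lower, with a median of -0.87, whereas the transport median was 0.10 with 3 higher and 4 lower. Over all genes 8004 were called without that library, against 6126 with it. Calls that kinesins gained without it, here and below, came beside this rise over all genes.

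The motors that form the bipolar spindle were among the steepest falls. KIF11, which slides antiparallel microtubules apart and is needed to separate the spindle poles, had 63.1, 57.5 and 61.5 CPM in sunitinib libraries and 137, 134 and 133 CPM in DMSO libraries. Each sunitinib library was below each DMSO library, and the log2 fold change was -1.15 ± 0.06 (SE; edgeR adjusted p = 1.64e-07). KIF15, a motor that can sustain the spindle when KIF11 is inhibited, had 19.3, 18.0 and 22.04 CPM in sunitinib libraries and 38.9, 40.2 and 40.0 CPM in DMSO libraries. Its log2 fold change was -1.004 ± 0.10 (edgeR adjusted p = 1.12e-05), with no overlap of the groups. KIFC1, which walks towards the minus end and gathers extra centrosomes into poles, had 42.2, 47.3 and 45.8 CPM in sunitinib libraries and 94.2, 97.2 and 97.1 CPM in DMSO libraries. It fell by 1.09 ± 0.07 on the log2 scale (edgeR adjusted p = 3.62e-07), and the groups did not overlap.

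KIF20B, a motor of late cytokinesis, showed the largest fall of the family under sunitinib. It had 48.3, 51.3 and 53.3 CPM in sunitinib libraries and 126, 120.3 and 128 CPM in DMSO libraries, with no overlap. The fall was 1.29 ± 0.08 on the log2 scale (edgeR adjusted p = 5.04e-07), a 2.45-fold lower level. KIF18B, which limits the length of astral microtubules, had 57.8, 63.1 and 50.9 CPM in sunitinib libraries and 118, 121 and 124 CPM in DMSO libraries. Sunitinib replicate 3 was the lowest of them, yet all 3 lay below the DMSO range, and the log2 fold change was -1.08 ± 0.08 (edgeR adjusted p = 2.02e-06).

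The other mitotic kinesins fell less. KIF20A, which carries the Aurora B complex to the central spindle, changed by -0.90 ± 0.08 (log2 fold change, SE). KIF4A, a chromosome-bound motor that works with PRC1 at the central spindle, changed by -0.80 ± 0.08. KIF2C, a microtubule depolymerase of centromeres, changed by -0.77 ± 0.06, and its relative KIF2A, which acts at spindle poles and also in neurons, by -0.34 ± 0.07. KIF23, the motor of the centralspindlin complex, changed by -0.76 ± 0.07, KIF14, a midbody motor, by -0.76 ± 0.09, KIF22, which pushes chromosome arms outward, by -0.69 ± 0.07, and KIF18A, which damps chromosome movements at the metaphase plate, by -0.58 ± 0.09. The largest edgeR adjusted p of these 8 was 0.00151, that of KIF2A. KIF2A shares 428 exonic bases with IPO11 on the same strand, and IPO11 changed by -0.57 ± 0.07, so reads in that stretch cannot be told apart.

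Among the ciliary and other kinesins KIF24 fell under sunitinib. KIF24, a centriolar kinesin that restrains cilium formation, had 10.9, 10.4 and 7.74 CPM in sunitinib libraries and 20.6, 20.7 and 21.9 CPM in DMSO libraries. The groups did not overlap, and the log2 fold change was -1.11 ± 0.13 (edgeR adjusted p = 4.12e-05). Without sunitinib replicate 3 this fold change was -0.98. KIF21A, a brake on microtubule growth at the cell cortex, had 60.3, 55.5 and 53.3 CPM in sunitinib libraries and 78.4, 74.9 and 68.7 CPM in DMSO libraries, a fall of 0.39 ± 0.08 on the log2 scale (edgeR adjusted p = 0.00255). KIF7, a regulator of Hedgehog signalling at the cilium tip, changed by 0.33 ± 0.15, KIF21B by 0.30 ± 0.17, KIF27 by 0.27 ± 0.17, KIF9 by 0.30 ± 0.16 and KIF26B by 0.75 ± 0.57, none of them called. Without sunitinib replicate 3, KIF7 (0.50, edgeR adjusted p = 3.4e-05), KIF21B (0.48, edgeR adjusted p = 0.00327) and KIF27 (0.42, edgeR adjusted p = 0.0212) were called higher. KIF7 shares 589 exonic bases with TICRR on the other strand, which changed by -0.92 ± 0.13, and KIF9 shares 870 with its antisense gene KIF9-AS1, which changed by 0.73 ± 0.13. Whether counting used strand is not stated, so the values of KIF7 and KIF9 are uncertain.

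Of the 13 transport kinesins 4 were called under sunitinib, KIF17 higher and KIF5B, KIF13A and KIF1B lower. KIF5B had 396, 389 and 359.5 CPM in sunitinib libraries and 485, 447 and 465 CPM in DMSO libraries, a fall of 0.29 ± 0.07 on the log2 scale (edgeR adjusted p = 0.00671). KIF13A, an endosome motor, changed by -0.41 ± 0.10 (edgeR adjusted p = 0.00597) and KIF1B, a motor for mitochondria and synaptic vesicle precursors, by -0.40 ± 0.12 (edgeR adjusted p = 0.0204). Leaving out DMSO replicate 1 or 3 ended the call of KIF1B, with edgeR adjusted p of 0.0632 and 0.0618, and so did upper quartile scaling (0.0514). Without sunitinib replicate 3 KIF1B was called at -0.25, KIF13A at -0.30 and KIF5B at -0.25. KIF17, a motor best known from neurons and cilia, had 1.17, 1.49 and 0.9753 CPM in sunitinib libraries and 0.584, 0.54 and 0.322 CPM in DMSO libraries. It was called higher, at 1.31 ± 0.35 (edgeR adjusted p = 0.0103), on 15 to 24 counts per sunitinib library and 5 to 9 per DMSO library. KIF1C changed by -0.24 ± 0.09, KIF3A by 0.24 ± 0.10, KIF3B by -0.12 ± 0.07, KIF3C by -0.03 ± 0.11, KIF5C by 0.03 ± 0.14, KIF13B by -0.07 ± 0.14, KIF16B by -0.09 ± 0.20, KIFC2 by 0.54 ± 0.20 and KIFC3 by 0.05 ± 0.11, and none passed the threshold. KIF3A was called higher with upper quartile scaling (0.32, edgeR adjusted p = 0.0307) and with library totals. KIFC2 was called higher with either of these, with a filter of 1 CPM in 3 libraries, without a filter and with DESeq2 (0.53, DESeq2 adjusted p = 0.0373). KIF1C was called lower without a filter, with limma voom and with DESeq2 (-0.245, DESeq2 adjusted p = 0.0443). Without sunitinib replicate 3, KIFC2 (0.78, edgeR adjusted p = 1.17e-07) and KIFC3 (0.18, edgeR adjusted p = 0.00252), motors that walk towards the minus end, were called higher and KIF1C lower (-0.13, edgeR adjusted p = 0.0048). KIF13B (0.10) and KIF3C (0.11) turned sign without it and were not called. KIF1C was also called lower without sunitinib replicate 2 (-0.32, edgeR adjusted p = 0.0154).

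**Figure D2:**
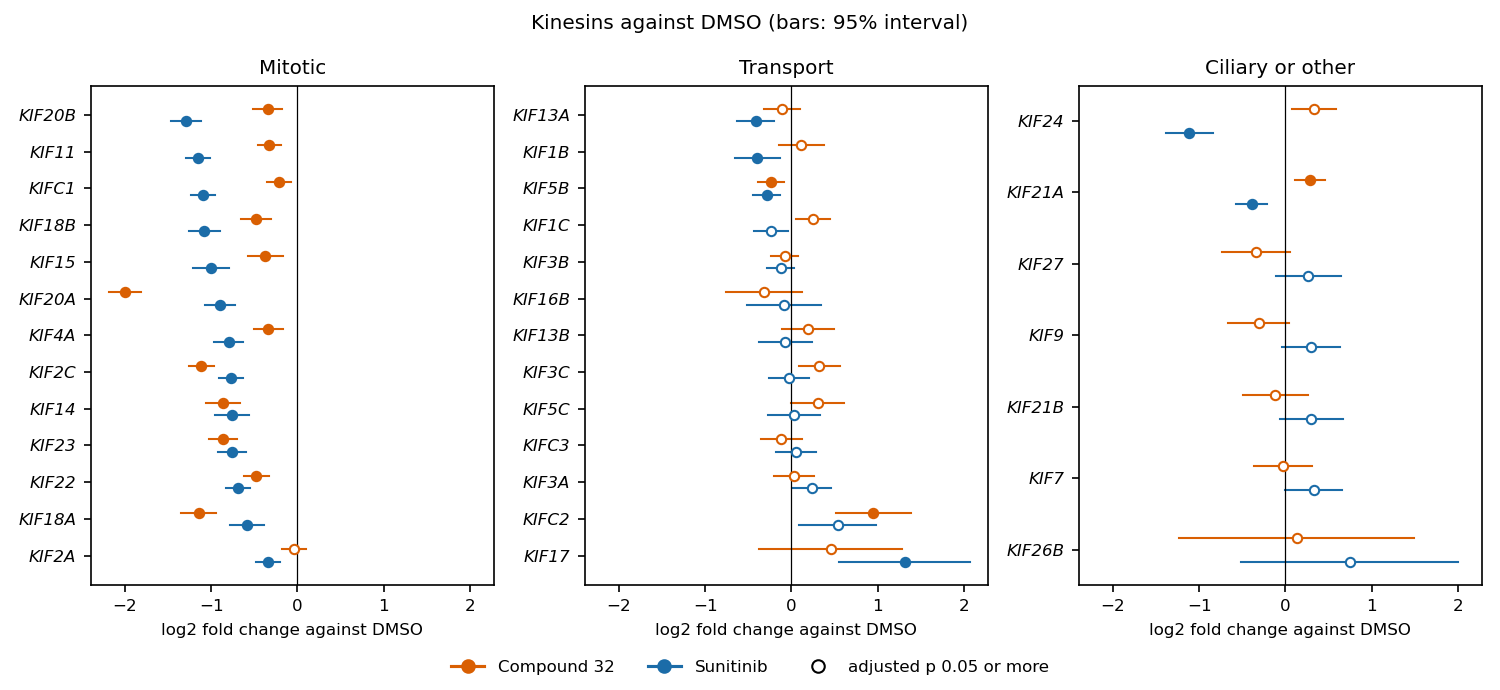
Log2 fold change against DMSO of the 33 kinesins tested, for compound 32 and sunitinib, in 1 panel per class, with 95% intervals; filled points had an adjusted p under 0.05. In the mitotic panel every point lies below 0, with KIF20A farthest under compound 32 and KIF20B farthest under sunitinib, while the transport points lie on both sides of 0.

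Compound 32 lowered mitotic kinesins as well, but with different members in front. Of the 13 mitotic kinesins 12 were called lower and 1, KIF2A, was not called; the median log2 fold change was -0.47 and the range -1.997 to -0.04. Of all genes tested 10.3% were called lower, 12.0% higher and 22.3% in either direction, and their median was -0.00. A fall of 2-fold or more was found in 3 of the 13 mitotic kinesins and in 1.14% of all genes. Of 13 transport kinesins 1 was lower, 1 higher and 11 not called, with a median of 0.12. Of 7 ciliary or other kinesins 1 was higher and 6 not called, with a median of -0.03. Both treatments were set against the same 3 DMSO libraries. The fit took its spread from all 9 libraries. With sunitinib replicate 3 left out, although it is in neither group, 12 mitotic kinesins were again lower, and 6 transport kinesins were called higher. Over all genes the number called moved to 6548 without that library, against 3401 with it.

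The largest fall was in KIF20A. It had 29.6, 28.9 and 31.4 CPM in compound 32 libraries and 119.7, 116 and 124 CPM in DMSO libraries. The 3 compound 32 libraries were close together and far below DMSO, at a log2 fold change of -1.997 ± 0.09 (edgeR adjusted p = 7.51e-08), a 3.99-fold lower level. KIF20A (ENSG00000112984) lies on chromosome 5 from 138178719 to 138187715 on the plus strand (GRCh38). Its exons share 132 bases with BRD8, which changed by -0.60 ± 0.06, and 68 with CDC23, which changed by -0.05 ± 0.08, both on the other strand.

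KIF18A and KIF2C, which act on the plus ends of kinetochore and spindle microtubules, came next. KIF18A had 23.3, 21.97 and 21.6 CPM in compound 32 libraries and 46.0, 49.9 and 51.7 CPM in DMSO libraries, a fall of 1.14 ± 0.09 on the log2 scale (edgeR adjusted p = 8e-06). KIF2C had 83.1, 80.6 and 77.8 CPM in compound 32 libraries and 174, 169 and 178 CPM in DMSO libraries, a fall of 1.11 ± 0.07 (edgeR adjusted p = 6.62e-07). In both genes the groups were well separated. KIF23 changed by -0.86 ± 0.07 and KIF14 by -0.86 ± 0.09, with edgeR adjusted p of 1.26e-05 and 5.09e-05.

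KIF20B, KIF11, KIFC1, KIF18B and KIF15, which led under sunitinib, fell less under compound 32. KIF11 had 106, 110.3 and 106 CPM in compound 32 libraries, below the DMSO range given above, and changed by -0.33 ± 0.06 (edgeR adjusted p = 0.0027). KIFC1 had 82.1, 84.4 and 82.8 CPM and changed by -0.21 ± 0.06 (edgeR adjusted p = 0.0333); it was not called when any of the 6 compound 32 and DMSO libraries was left out (edgeR adjusted p = 0.0714 to 0.107). KIF15 had 30.1, 33.7 and 28.3 CPM and changed by -0.37 ± 0.09 (edgeR adjusted p = 0.014), but was not called without DMSO replicate 2 or 3 or without compound 32 replicate 1 or 3 (0.0519 to 0.0683). KIF20B, at 108, 98.2 and 88.3 CPM, changed by -0.35 ± 0.08 and KIF18B, at 82.0, 90.2 and 88.7 CPM, by -0.48 ± 0.08. KIF22 changed by -0.47 ± 0.07, KIF4A by -0.34 ± 0.08 and KIF2A by -0.04 ± 0.06. The 95% interval for KIF2A ran from -0.18 to 0.10.

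Of the remaining kinesins 3 were called under compound 32. KIFC2 had 15.7, 17.1 and 18.1 CPM in compound 32 libraries and 8.11, 8.99 and 9.2 CPM in DMSO libraries, a rise of 0.95 ± 0.20 on the log2 scale (edgeR adjusted p = 0.00588). KIF5B had 413, 400.4 and 373 CPM in compound 32 libraries and fell by 0.24 ± 0.07 (edgeR adjusted p = 0.032). KIF21A had 96.8, 90.5 and 83.8 CPM in compound 32 libraries, above the DMSO range of 68.7 to 78.4 CPM, and rose by 0.29 ± 0.08 (edgeR adjusted p = 0.0234). KIF5B was not called when any of the 6 compound 32 and DMSO libraries was left out (edgeR adjusted p = 0.0554 to 0.133), and KIF21A was not called without DMSO replicate 2 or 3 or without compound 32 replicate 1 or 2 (0.0715 to 0.119). In the main fit KIF21A was the only kinesin called in opposite directions against DMSO, lower under sunitinib and higher under compound 32. KIF1C (-0.13 under sunitinib, 0.25 under compound 32), KIF1B (-0.25, 0.12) and KIF24 (-0.98, 0.33) were so called too without sunitinib replicate 3. So was KIF1C without sunitinib replicate 2 or without the count filter. The same held for KIF24 with DESeq2, without the filter or with only the 6 libraries compared.

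No other transport kinesin was called under compound 32. KIF3C, a partner of KIF3A in some heterodimers, changed by 0.32 ± 0.11 (edgeR adjusted p = 0.0511), KIF1C by 0.25 ± 0.09, KIF5C by 0.30 ± 0.14, KIF13B by 0.20 ± 0.14, KIF1B by 0.12 ± 0.12 and KIF17 by 0.46 ± 0.38. KIF3A and KIF3B, which form the motor of intraflagellar transport, changed by 0.03 ± 0.10 and -0.08 ± 0.07. KIF13A changed by -0.11 ± 0.10, KIFC3 by -0.12 ± 0.11 and KIF16B, an early endosome motor, by -0.32 ± 0.20. Without sunitinib replicate 3, KIF3C (0.33, edgeR adjusted p = 1.76e-06), KIF1C (0.25, edgeR adjusted p = 4.87e-08), KIF5C (0.31, edgeR adjusted p = 0.0152), KIF13B (0.20, edgeR adjusted p = 0.0232) and KIF1B (0.12, edgeR adjusted p = 0.0353) were called higher beside KIFC2. KIF3C was called without sunitinib replicate 1 too (edgeR adjusted p = 0.0311), and KIF1C without sunitinib replicate 2 (0.0498).

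In the ciliary and other class KIF24 had 26.4, 24.3 and 28.6 CPM in compound 32 libraries, each above the DMSO range. Its log2 fold change of 0.33 ± 0.12 was not called (edgeR adjusted p = 0.0654), but it was without sunitinib replicate 3 (0.33, edgeR adjusted p = 0.000909). KIF7 changed by -0.03 ± 0.15, KIF9 by -0.31 ± 0.16, KIF21B by -0.12 ± 0.17, KIF26B by 0.13 ± 0.62 and KIF27 by -0.34 ± 0.18.

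**Figure D3:**
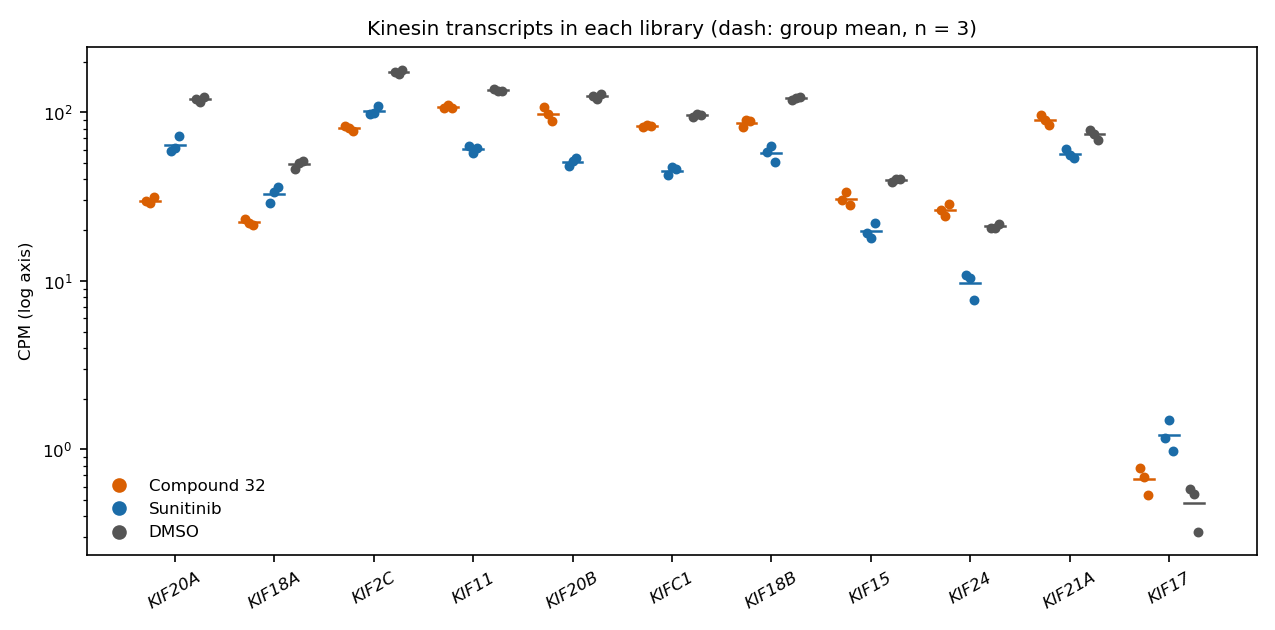
CPM on a log axis in each of the 9 libraries for the kinesins described with per-library values, except KIF5B and KIFC2, grouped as compound 32, sunitinib and DMSO; dashes are group means of 3 libraries. KIF20A, KIF18A and KIF2C are lowest under compound 32, whereas KIF11, KIF20B, KIFC1, KIF18B, KIF15, KIF24 and KIF21A are lowest under sunitinib.

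Set against each other in the same fit, the compounds differed in how far they lowered single mitotic kinesins. Of the 13 mitotic kinesins 3 were lower under compound 32 than under sunitinib, 8 were higher and 2 were not called. Over all genes 25.2% were lower, 24.1% higher and 49.2% called in either direction. The share of calls that were higher was 48.9%, against 39.0% with upper quartile scaling and 40.9% with library totals. The number of genes called was 7498, and 9139 without sunitinib replicate 3, so calls gained without it came beside a rise over all genes. The doses are not given, so these are differences between the treatments as used. KIF20A was lower under compound 32, at a log2 fold change of -1.10 ± 0.09 (edgeR adjusted p = 1.27e-06), with 29.6, 28.9 and 31.4 CPM in compound 32 libraries against 59.1, 61.6 and 72.4 CPM in sunitinib libraries. KIF18A (29.1, 33.6 and 36.1 CPM in sunitinib libraries) changed by -0.56 ± 0.09 (edgeR adjusted p = 4.29e-04) and KIF2C (97.7, 99.8 and 109 CPM in sunitinib libraries) by -0.34 ± 0.07 (edgeR adjusted p = 0.00105). The ranges of the compounds did not overlap in any of these 3 genes.

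The 8 mitotic kinesins that went the other way had several roles, among them the spindle motors KIF11, KIF15 and KIFC1 and the cytokinesis motor KIF20B. KIF20B was higher under compound 32 than under sunitinib by 0.95 ± 0.08, KIFC1 by 0.88 ± 0.07 and KIF11 by 0.83 ± 0.06 on the log2 scale, with edgeR adjusted p of 2.78e-06, 8.69e-07 and 9.51e-07. KIF15 was higher by 0.63 ± 0.10, KIF18B by 0.60 ± 0.08, KIF4A by 0.46 ± 0.08, KIF2A by 0.30 ± 0.07 and KIF22 by 0.21 ± 0.07. KIF22 was not called without sunitinib replicate 2 (edgeR adjusted p = 0.0506) or without compound 32 replicate 3 (0.0604), nor with upper quartile scaling (0.13, edgeR adjusted p = 0.127) or library totals (0.15, edgeR adjusted p = 0.0926). KIF23 and KIF14 were not called between the compounds. The 95% interval of their difference was -0.27 to 0.06 for KIF23 and -0.30 to 0.09 for KIF14, which bounds a difference without showing that the compounds act alike. Without sunitinib replicate 3 KIF14 was called lower under compound 32 (-0.17, edgeR adjusted p = 0.0264).

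Outside the mitotic class KIF24 showed the largest difference between the compounds, higher under compound 32 by 1.44 ± 0.12 (edgeR adjusted p = 3.01e-06). Its 26.4, 24.3 and 28.6 CPM in compound 32 libraries stood against 10.9, 10.4 and 7.74 CPM in sunitinib libraries. Without sunitinib replicate 3 the difference was 1.31. KIF24 shares 143 exonic bases with UBAP1 on the other strand, which changed by 0.02 ± 0.07. KIF21A was higher under compound 32 by 0.68 ± 0.08 (edgeR adjusted p = 3.55e-05), and the transport motors KIF1B by 0.51 ± 0.12, KIF1C by 0.48 ± 0.09, KIF3C by 0.35 ± 0.11 and KIF13A by 0.30 ± 0.10. Those 4 transport genes were low in sunitinib replicate 3, and without it they were still called, KIF1B at 0.37, KIF1C at 0.38, KIF3C at 0.22 and KIF13A at 0.20. The transport median was 0.10 without it, against 0.27 with it. KIF3C was not called without compound 32 replicate 3 (edgeR adjusted p = 0.0591), and KIF13A not without compound 32 replicate 1 (0.1). Upper quartile scaling ended the calls of KIF3C (0.0539) and KIF13A (0.0807) as well. Lower under compound 32 were KIF9 (-0.61 ± 0.16), KIF27 (-0.60 ± 0.18) and KIF17 (-0.86 ± 0.33, edgeR adjusted p = 0.0469). Without sunitinib replicate 3 these were -0.585, -0.75 and -0.98. KIF9-AS1 changed by -1.63 ± 0.14 here, and KLHL18, which shares 178 exonic bases with KIF9 on the other strand, by 0.34 ± 0.12. The value of KIF9 is uncertain in this comparison too. KIF17 was not called when any other library than sunitinib replicate 3 was left out (edgeR adjusted p = 0.0507 to 0.163), and KIF27 not without sunitinib replicate 1 (0.0656) or compound 32 replicate 2 (0.0643). KIFC2 differed by 0.41 ± 0.19 and was called without sunitinib replicate 2 (0.56, edgeR adjusted p = 0.0448). The others, not called, lay between -0.62 for KIF26B and 0.27 for KIF5C on the log2 scale. Of these KIF7 (-0.52, edgeR adjusted p = 1.34e-05), KIF21B (-0.60, 2.91e-04) and KIFC3 (-0.29, 2.51e-06) were called lower without sunitinib replicate 3. TICRR, which overlaps KIF7 on the other strand, changed by 1.22 ± 0.13 with all libraries.

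**Figure D4:**
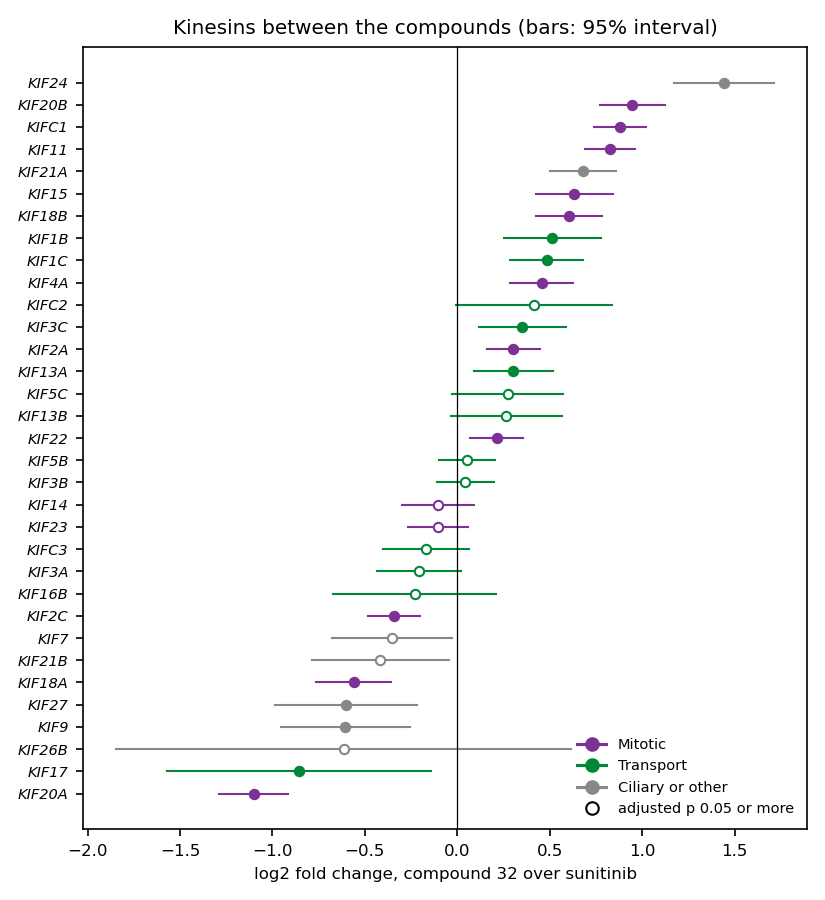
Log2 fold change of compound 32 over sunitinib for the 33 kinesins, with 95% intervals, coloured by class; filled points had an adjusted p under 0.05. Mitotic kinesins stand at both ends, from KIF20A at -1.10 to KIF20B at 0.95, and KIF24 lies highest at 1.44.

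Class means per library show the contrast of mitotic with transport kinesins without a fold change. The mean log2 CPM of the 13 mitotic kinesins was 5.87, 5.88 and 5.83 in compound 32 libraries, 5.62, 5.65 and 5.70 in sunitinib libraries and 6.50, 6.51 and 6.54 in DMSO libraries. All 6 treated libraries were below DMSO. For the 13 transport kinesins the means were 5.41, 5.40 and 5.30 in compound 32 libraries, 5.35, 5.39 and 5.01 in sunitinib libraries and 5.31, 5.20 and 5.19 in DMSO libraries, with overlapping groups. The difference, mitotic minus transport, was 0.46, 0.49 and 0.53 in compound 32 libraries, 0.28, 0.26 and 0.69 in sunitinib libraries and 1.19, 1.31 and 1.35 in DMSO libraries. It was smaller in every treated library, and among the treated libraries it was largest in sunitinib replicate 3, whose transport mean was the lowest of all 9 libraries.

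**Figure D5:**
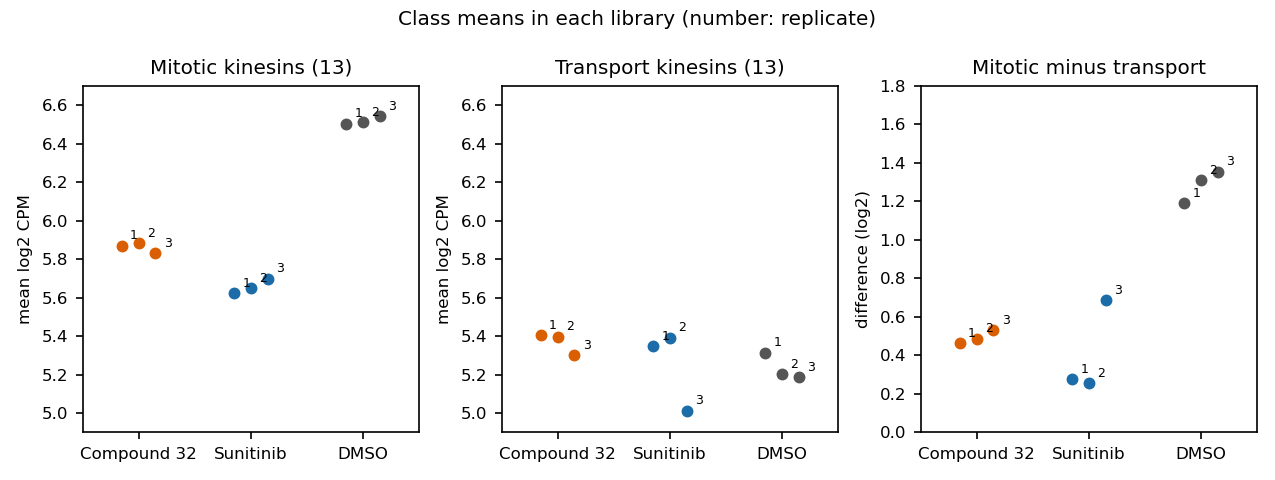
Mean log2 CPM of the mitotic and of the transport kinesins, and their difference, in each library, with the replicate number beside each point. The mitotic means of treated libraries lie between 5.62 and 5.88, below the DMSO values of 6.50 to 6.54, and sunitinib replicate 3 alone has a transport mean of 5.01.

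Transcripts of 20 proteins that work with mitotic kinesins were all tested. Under sunitinib 18 were lower, with a median of -0.87, against 19.9% lower over all genes, and NUMA1 (-0.13) and CLASP1 (-0.28) were not called. Under compound 32 15 were lower, with a median of -0.50, against 10.3% over all genes, and PRC1 (-0.25), NUSAP1 (-0.20), NUMA1 (-0.16), CLASP1 (0.04) and MAPRE1 (0.04) were not called. Under sunitinib the smallest p-values were those of PLK1, a mitotic kinase that binds KIF20A at the central spindle (-1.05 ± 0.06), RACGAP1, the partner of KIF23 in centralspindlin (-0.90 ± 0.06), and TACC3, a spindle microtubule crosslinker (-0.89 ± 0.06). Under compound 32 they were PLK1 (-1.99 ± 0.06), AURKA, a kinase of spindle poles (-1.70 ± 0.08), and CENPE, the kinesin of kinetochores whose symbol lies outside the KIF pattern (-1.44 ± 0.09). Compound 32 against sunitinib gave 8 higher and 4 lower, with PLK1 at -0.94 ± 0.06, AURKB, the kinase of the complex that KIF20A moves, at 0.77 ± 0.07 and AURKA at -0.76 ± 0.08. The largest edgeR adjusted p of these values was 1.56e-05.

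Of 18 partners of transport kinesins tested, 4 were higher and 2 lower under sunitinib (median 0.04), and 3 higher and 1 lower under compound 32 (median 0.07). These shares were not above those over all genes, 40.2% and 22.3% called in either direction. Under sunitinib the smallest p-values were those of KLC4, a kinesin light chain (0.69 ± 0.15), KIF1BP, a kinesin-binding protein (-0.29 ± 0.07), and KIFAP3, the adaptor of the KIF3 motor (0.43 ± 0.13). Under compound 32 those called included TRAK1, which links mitochondria to KIF5 motors (0.37 ± 0.08), and FEZ2, a kinesin adaptor (-0.33 ± 0.09). Between the compounds, compound 32 over sunitinib, 3 were higher and 3 lower, a share below the 49.2% called over all genes. TRAK1 (0.65 ± 0.08), FEZ2 (-0.58 ± 0.09) and KLC4 (-0.84 ± 0.15) led.

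Dynein and dynactin, the motor complex that walks towards the minus end, had 24 genes tested. Under sunitinib 3 were higher and 7 lower (median -0.05), a share close to the 40.2% called over all genes, led by the dynactin subunits ACTR1B (0.76 ± 0.08), ACTR1A (-0.30 ± 0.06) and DCTN5 (-0.28 ± 0.06). Under compound 32 1 was higher and 3 were lower (median -0.00), a share below the 22.3% called over all genes. The dynein regulators NDE1 (-0.37 ± 0.07) and NDEL1 (0.34 ± 0.07) and DCTN4 (-0.26 ± 0.06) led. Compound 32 over sunitinib gave 9 higher and 3 lower, a share close to the 49.2% called over all genes. It was led by ACTR1B (-1.09 ± 0.08), DCTN5 (0.38 ± 0.06) and BICD2 (0.56 ± 0.10), a cargo adaptor of dynein.

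Tubulins, the subunits of the microtubule track, had 14 genes tested, and near-identical copies among them may exchange reads. Under sunitinib 8 were lower and 3 higher (median -0.37), against 40.2% of all genes called in either direction. TUBB4B was at -1.03 ± 0.08, TUBA1C at -0.58 ± 0.07 and TUBE1, the epsilon tubulin of centrioles, at 0.73 ± 0.08. Under compound 32 4 were lower and 4 higher (median 0.12), against 22.3% of all genes called, with TUBA1C at -0.37 ± 0.07, TUBE1 at -0.40 ± 0.08 and TUBB2A at 0.46 ± 0.09. Compound 32 over sunitinib gave 7 higher and 1 lower, a share near the 49.2% called over all genes. TUBE1 was at -1.13 ± 0.08, TUBA4A at 1.72 ± 0.18 and TUBG1, the gamma tubulin that starts microtubules, at 0.65 ± 0.07.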

How the data were processed

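Messenger RNA from HEYA8 cells was sequenced after oligo(dT) enrichment, per the labels' protocols. The authors deposited raw counts of reads per gene in 9 columns, each matched to its sample by the name in that sample's description. Per the submitters' processing notes, fastp, HISAT2 2.0.5, featureCounts, DESeq2 and edgeR were used, with builds hg38 and mm10 and no roles given. All 58735 gene coordinates were those of GENCODE 29 on GRCh38. The labels state neither strand nor multi-mapping settings.

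Genes were filtered with filterByExpr and scaled by TMM factors between 0.983 and 1.051. The test was the quasi-likelihood F test of edgeR 4.0.16 (R 4.3.3) over all 9 libraries, with 6 residual degrees of freedom before moderation. P-values were adjusted by Benjamini-Hochberg over 15232 genes. Group means in the fit shared 1 estimate of the spread, and SE and 95% intervals come from it. CPM use the TMM factors; log2 CPM use a prior count of 2. The fit was tested on simulated counts. DESeq2 1.42.0, limma 3.58.1 (voom) and other settings were alternatives.

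The kinesin members, classes and partner lists were chosen with earlier results of these data known. Every tested kinesin is named; libraries are listed singly for kinesins called at a log2 fold change of at least 1 in size, or in opposite directions, and for a few others (KIF5B and KIFC2) chosen after their values were seen. Of each partner list the 3 genes with the smallest p-values per comparison are named, except for 1 gene that is not reported here. Pairs of replicates differed by more than sampling noise (lowest ratio of chi-square to its degrees of freedom 1.86, and 45.3 and 46.4 for the pairs with sunitinib replicate 3).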

Additional observations from a re-analysis of the deposited data

How the results depend on the processing

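All 13 mitotic kinesins remained lower under sunitinib in every alternative, and 10 to 12 under compound 32. No called kinesin changed sign in any alternative. The median mitotic log2 fold change under sunitinib was -0.71 with upper quartile factors, -0.74 with library totals, -0.90 with KIF2A counted as other and KIF24 as mitotic, and -0.87 to -0.79 when leaving out each library in turn, where the transport median was -0.16 to 0.10. Of the genes called under sunitinib 50.4% were higher, against 63.1% with upper quartile factors. Under compound 32 the mitotic median was -0.50 to -0.44 when leaving out each library. The number of genes called under compound 32 was 6372 with only the 6 libraries compared, and 2136 to 6548 when leaving out each library; it was highest without sunitinib replicate 3. For compound 32 over sunitinib the mitotic median was 0.22 with upper quartile factors, 0.24 with library totals, 0.46 with KIF2A and KIF24 exchanged and 0.26 to 0.33 when leaving out each library, and the transport median 0.10 to 0.34. The cause was not tested. The labels do not say whether the number in the sample titles pairs libraries. Same-numbered libraries had correlations of deviations between -0.077 and 0.061, which show no pairing but, with 3 libraries per group, cannot exclude it. With the replicate block 5758, 2878 and 7174 genes were called in the 3 comparisons, 13 and 11 mitotic kinesins were lower under sunitinib and compound 32, and KIFC1 under compound 32 (edgeR adjusted p = 0.0528) and KIF17 between the compounds (0.0513) were not called. Low counts limit KIF17 and KIF26B, and PRC1 and NUSAP1 among the partners.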
